A study of Homo sapiens with 24 samples.

Results

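The transcripts described here are those of 6 human genes that detect or relay foreign or misplaced nucleic acid: RIGI, IFIH1 (which encodes MDA5), DHX58 (LGP2), MAVS, ZBP1 and TLR3. They were chosen by name and are 6 of the 60609 rows of a table of TPM, a transcript level scaled by gene length and by the sum over each library. The cells were A549, an established epithelial line from a human lung adenocarcinoma. They were transfected for 48 h with a pool of siRNAs against BOP1, a ribosome assembly factor, or with siRNA against firefly luciferase (siFLuc), which has no target in these cells. They were then mock-treated or given IFN-β at 1000 U/mL for 8 or 12 h, which gave 8 groups with 3 libraries each. All groups, mock included, had therefore been transfected, and the siBOP1 cells carried a partial knockdown in 1 cell line.

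RIG-I and MDA5 are cytosolic helicases that bind double-stranded RNA, RIG-I preferring short RNA with a 5′ triphosphate and MDA5 long duplexes, and both pass the signal to MAVS on the outer mitochondrial membrane. LGP2 lacks the signalling domains of the other helicases and modulates them, TLR3 reads double-stranded RNA in endosomes through the adaptor TRIF, and ZBP1 binds Z-form nucleic acid and can start necroptosis. Type I interferon, which these receptors induce, in turn raises transcription of many of them, and epithelial cells of the lung are a known site of that loop.

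On GRCh38, GENCODE 29 places the protein-coding gene RIGI at chr9:32455705-32526324 and IFIH1 at chr2:162267079-162318703, both on the minus strand. DHX58 lies at chr17:42101404-42112733, minus strand, and ZBP1 at chr20:57603846-57620576, minus strand. MAVS lies at chr20:3846799-3876123 and TLR3 at chr4:186069152-186088069, both on the plus strand.

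The upstream sequences are shown because they let the members with a large IFN response be set beside MAVS. RefSeq windows on GRCh38.p14, from 250 bases before to 50 bases after each annotated start, were matched for 4 of the 6 members, and those of DHX58 and ZBP1 were not used here. Each is written 5′ to 3′ on the gene's own strand, and capitals mark matches on either strand to GAAANNGAAA or GAAANGAAA, forms of the interferon-stimulated response element with a spacer of 2 or of 1 base. The form with a spacer of 1 was added after the RIGI window had been seen. RIGI lies at chr9:32526147-32526446, minus strand; IFIH1 at chr2:162318635-162318934, minus strand; TLR3 at chr4:186068906-186069205, plus strand; and MAVS at chr20:3846584-3846883, plus strand.
RIGI: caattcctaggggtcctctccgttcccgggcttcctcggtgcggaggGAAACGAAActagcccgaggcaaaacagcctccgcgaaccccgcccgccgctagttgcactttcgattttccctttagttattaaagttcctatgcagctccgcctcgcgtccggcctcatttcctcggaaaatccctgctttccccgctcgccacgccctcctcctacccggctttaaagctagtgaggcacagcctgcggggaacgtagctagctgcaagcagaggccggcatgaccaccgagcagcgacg
IFIH1: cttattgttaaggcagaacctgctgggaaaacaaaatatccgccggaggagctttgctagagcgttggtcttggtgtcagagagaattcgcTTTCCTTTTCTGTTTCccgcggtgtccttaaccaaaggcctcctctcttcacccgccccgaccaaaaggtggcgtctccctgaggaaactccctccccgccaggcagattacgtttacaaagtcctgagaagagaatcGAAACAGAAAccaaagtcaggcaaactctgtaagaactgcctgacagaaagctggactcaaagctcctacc
TLR3: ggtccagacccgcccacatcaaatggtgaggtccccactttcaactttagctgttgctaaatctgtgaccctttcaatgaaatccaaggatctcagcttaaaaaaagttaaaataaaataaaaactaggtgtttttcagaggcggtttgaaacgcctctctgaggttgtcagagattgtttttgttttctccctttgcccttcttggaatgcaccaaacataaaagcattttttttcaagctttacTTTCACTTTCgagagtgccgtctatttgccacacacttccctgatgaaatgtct
MAVS: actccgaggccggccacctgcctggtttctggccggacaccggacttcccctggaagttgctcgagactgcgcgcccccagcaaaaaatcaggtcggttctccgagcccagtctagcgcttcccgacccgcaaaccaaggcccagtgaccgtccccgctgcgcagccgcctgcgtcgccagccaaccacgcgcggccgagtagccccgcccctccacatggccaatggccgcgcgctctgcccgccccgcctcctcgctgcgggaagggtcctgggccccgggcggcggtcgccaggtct

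The IFIH1 window held 3 matches to GAAANNGAAA, of which 2 overlapped at positions -159 to -150 and -153 to -144 and the other lay at -21 to -12, counting from the RefSeq start. The TLR3 window held 1, across the start itself at -4 to 6. The RIGI window held no GAAANNGAAA and 1 GAAANGAAA at -203 to -195. The MAVS window held neither pattern and had the highest GC content of the 4 windows, 71.7%, against 40.3% for TLR3. Of 35116 RefSeq promoter windows of the same 300 bases, 3.574% held GAAANNGAAA and 3.124% GAAANGAAA on either strand. These matches describe letters in the windows and were not tested as binding sites.

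Libraries carried the numbers 1, 2 and 4 in every group, whereas the sample labels number replicates to 3. The 8 columns numbered 4 were therefore assigned by their group name only. Neither source says that the replicates were separate cultures, so the p-values below measure the spread between these libraries, which may be technical. Read depth is not given by TPM and is unknown; between 13844 and 14509 genes reached 1 TPM in each library. BOP1 itself was at 10.0 to 19.5 TPM in the 12 siBOP1 libraries and at 32.4 to 78.8 TPM in the 12 siFLuc libraries, with no overlap. The epithelial keratins KRT8 and KRT18 ranged over 2086 to 3803 and 1785 to 2862 TPM, EPCAM was low at 1.92 to 5.48 TPM, and the T cell marker CD3E was listed at 0 in all 24; of 3 alveolar type II markers SFTPA1 was at 0 throughout, SFTPB was at 0 in 22 libraries with a highest value of 0.395 TPM, and SFTPC was at 0 in 12 with a highest value of 1.61 TPM. The leukocyte marker PTPRC reached at most 0.021 TPM, and the myeloid markers CD14 and ITGAM ranged over 1.81 to 5.26 and 0.311 to 2.32 TPM. In bulk samples, fewer expressing cells and less RNA per cell cannot be told apart.

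With IFN-β the transcripts of all 3 helicases, of TLR3 and of ZBP1 rose under each siRNA and at each time, and MAVS was not called. The test was limma on log2(TPM + 1) over the 16062 genes that reached 1 TPM in 3 or more libraries, with Benjamini-Hochberg adjustment over all of them and a threshold of 0.05. All 6 members passed this filter on low values. RIGI, IFIH1 and MAVS reached 1 TPM in all 12 mock libraries and TLR3 in 6, whereas DHX58 and ZBP1 reached it in 0 and passed only through the IFN libraries, so their calls are part of how they entered and are not counted here. Of the 4 members that passed in mock cells, limma called 3 higher in siFLuc cells at 8 h, where 5.77% of all genes were called higher, and 3 at 12 h, where 7.06% were. In siBOP1 cells it called 3 of 4 at 8 h, against 5.99% of all genes, and 3 of 4 at 12 h, against 7.17%. In the mean of these 4 comparisons 3 of 4 rose, against 13.0% of all genes higher and 29% lower, and the median difference of the 4 on the log2(TPM + 1) scale was 4.93 against -0.10 for all genes.

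The division of all calls into higher and lower moved with the scaling of the libraries. The mean comparison had 2084 genes higher and 4652 lower as deposited, and 2946 higher and 2965 lower after median-of-ratios rescaling. At 8 h in siFLuc cells the same rescaling changed 927 higher and 814 lower to 1141 and 512. RIGI, IFIH1 and TLR3 were called higher under both. With column number as a block, the genes called higher in single comparisons numbered 1323 and 1794 in siFLuc cells after 8 and 12 h. In siBOP1 cells they numbered 1375 and 1826, and RIGI, IFIH1 and TLR3 were again among them in each comparison. The IFN and siRNA comparisons use the same 24 libraries and are therefore not independent of each other.

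**Figure D1:**
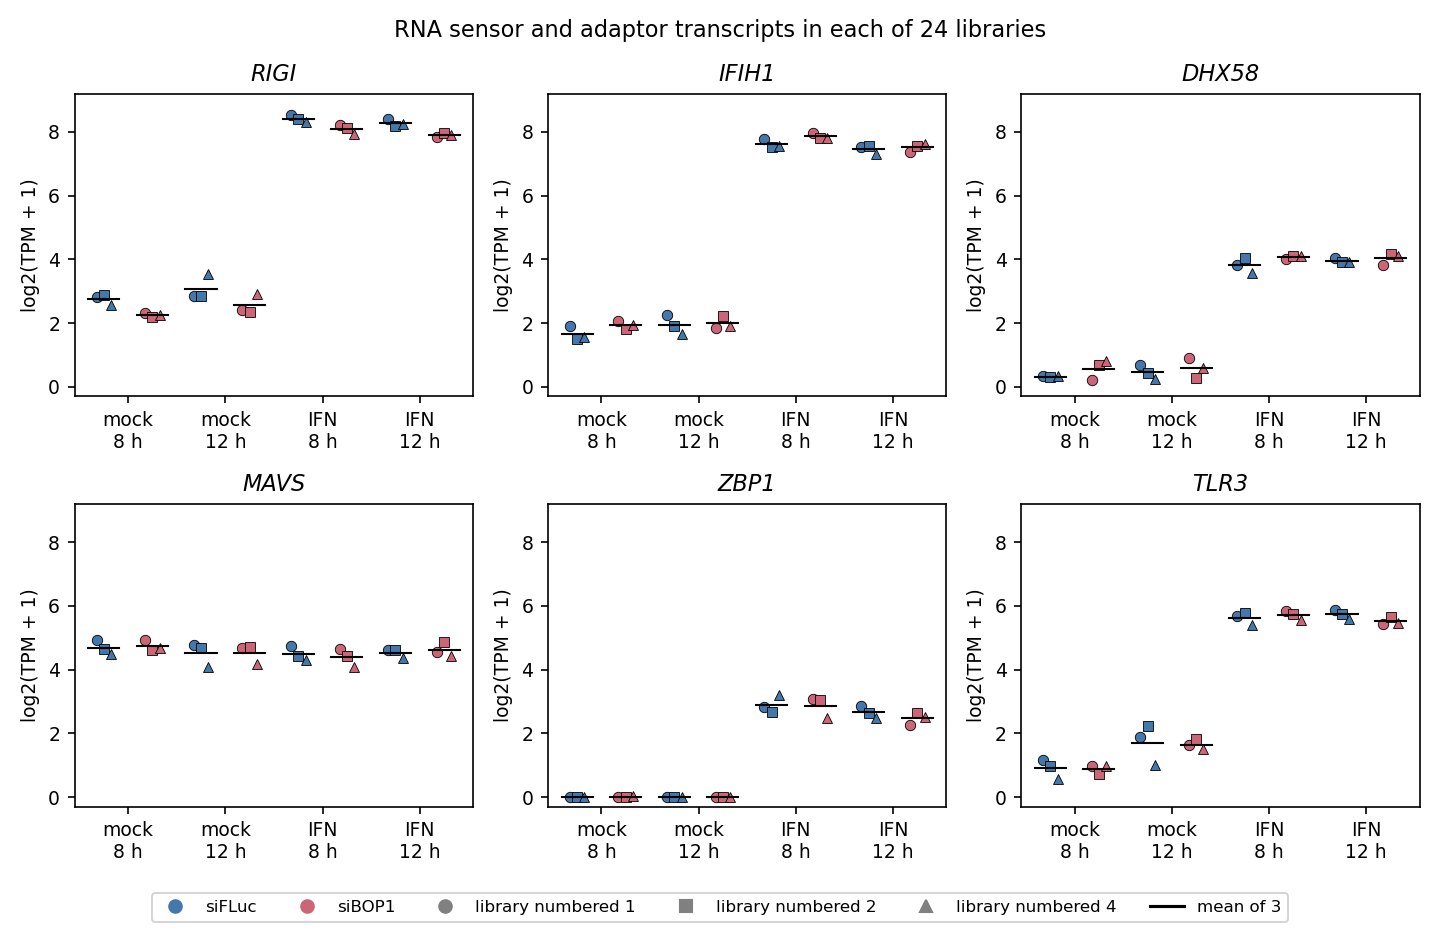
Level of each of the 6 transcripts as log2(TPM + 1) (vertical axis) in 24 libraries, grouped along the horizontal axis by treatment and time, with siFLuc in blue, siBOP1 in red, marker shape for the library number and a bar for the mean of 3. All 12 IFN libraries stand above all 12 mock libraries for RIGI, IFIH1, DHX58, ZBP1 and TLR3, and the 2 sets overlap for MAVS.

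RIGI was the most abundant of the receptor transcripts. In siFLuc mock cells at 8 h it stood at 5.98, 6.40 and 4.93 TPM in libraries 1, 2 and 4, and with IFN-β at 368, 334 and 317 TPM. In siBOP1 cells at 8 h the mock values were 3.96, 3.54 and 3.75 TPM, and the IFN values 297, 275 and 243 TPM. Every IFN library thus lay far above every mock library, and the siBOP1 libraries lay below the siFLuc libraries of the same treatment without overlap. How many of all genes separate the siRNA groups in this way, with 3 libraries each, was not counted here or below. At 12 h the siFLuc mock values were 6.21, 6.24 and 10.5 TPM and the IFN values 338, 288 and 302 TPM. The siBOP1 values at 12 h were 4.33, 4.06 and 6.59 TPM in mock cells and 229, 251 and 235 TPM with IFN-β. Library 4 was the highest of both mock groups at 12 h, and only in mock cells at 12 h did the siBOP1 and siFLuc ranges overlap. The IFN difference in siFLuc cells was 5.66 ± 0.16 (limma SE) at 8 h, with an adjusted p of 1.21e-16. It was 5.20 ± 0.16 at 12 h, with an adjusted p of 5.15e-16. By the ratio of mean TPM, siFLuc cells held 58.8-fold more RIGI with IFN-β after 8 h and 40.4-fold more after 12 h, and siBOP1 cells 72.4-fold and 47.7-fold more. Averaged over the 4 comparisons, its difference of 5.51 ± 0.08 was the 23rd largest of 16062 genes, and its mean level in siFLuc cells at 8 h went from rank 10010 to rank 380 among the 60609 rows.

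IFIH1, the MDA5 transcript, started lower and rose by more. In siFLuc cells at 8 h it stood at 2.75, 1.85 and 1.96 TPM in mock libraries and at 220, 183 and 186 TPM with IFN-β. In siBOP1 cells at 8 h it stood at 3.15, 2.55 and 2.80 TPM and at 249, 223 and 224 TPM. These 2 siRNA groups overlapped in mock cells, and with IFN-β the siBOP1 libraries all lay above the siFLuc libraries, the opposite order from RIGI. That siBOP1 difference with IFN-β was 0.24 (95% interval -0.06 to 0.55) and was not called by limma (adjusted p = 0.507). At 12 h the siFLuc values were 3.78, 2.74 and 2.17 TPM in mock cells and 183, 187 and 156 TPM with IFN-β. The siBOP1 values were 2.61, 3.70 and 2.77 TPM and 165, 188 and 194 TPM, so both pairs of siRNA groups overlapped at 12 h. The IFN difference was 5.96 ± 0.14 in siFLuc cells at 8 h (limma adjusted p = 9.33e-18), an 89.9-fold ratio of mean TPM, and 5.51 ± 0.14 at 12 h (adjusted p = 3.97e-17), a 60.5-fold ratio. In siBOP1 cells the ratios were 81.9-fold and 60.2-fold. Over the 4 comparisons the mean difference of 5.73 ± 0.07 ranked 20th of all genes tested.

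DHX58, which encodes the regulatory helicase LGP2, was the scarcest of the 3 helicase transcripts. Its 12 mock libraries ranged from 0.149 to 0.858 TPM, below the filter of 1 TPM, and its 12 IFN libraries from 10.9 to 16.9 TPM. In siFLuc cells at 8 h the values were 0.253, 0.226 and 0.260 TPM in mock libraries and 13.2, 15.4 and 10.9 TPM with IFN-β. On the log2(TPM + 1) scale the IFN differences were 3.50 for both siRNAs after 8 h. After 12 h they were 3.49 (siFLuc) and 3.45 (siBOP1), with a limma SE of 0.18 in each. No p-value is given for DHX58, which passed the filter only through its IFN libraries. The scale of log2(TPM + 1) compresses the change of a gene this low: the ratio of mean TPM was 53.5-fold and 37.5-fold in siFLuc cells after 8 and 12 h and 31.2-fold and 29.6-fold in siBOP1 cells, and a pseudocount of 0.1 gave a mean difference of 4.98 in place of 3.48.

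TLR3, the endosomal receptor, stood at 1.25, 0.984 and 0.468 TPM in siFLuc mock libraries at 8 h and at 50.7, 54.0 and 41.3 TPM with IFN-β. In siFLuc cells at 12 h it stood at 2.72, 3.72 and 0.994 TPM in mock libraries and at 57.5, 52.1 and 47.2 TPM with IFN-β. The siBOP1 mock libraries held 0.945, 0.664 and 0.953 TPM at 8 h and 2.11, 2.50 and 1.82 TPM at 12 h. Library 4 was the lowest of both siFLuc mock groups, and every IFN library, from 41.3 TPM upward, lay above every mock library. In siFLuc cells IFN-β raised TLR3 by 4.72 ± 0.22 after 8 h and by 4.02 ± 0.22 after 12 h (limma adjusted p = 4.28e-13 and 7.31e-12). The matching ratio of mean TPM was 54.1-fold at 8 h and 21.1-fold at 12 h, with IFN levels that overlapped between the times. In siBOP1 cells the differences were 4.82 and 3.86, and the ratios 60.2-fold and 20.8-fold.

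ZBP1 was listed at 0 in 11 of 12 mock libraries and at 0.032 TPM in the other, library 4 of the siBOP1 mock group at 8 h, so no fold change is given. With IFN-β at 8 h it stood at 6.07, 5.33 and 8.13 TPM in siFLuc cells and at 7.40, 7.19 and 4.61 TPM in siBOP1 cells. At 12 h it stood at 6.21, 5.27 and 4.58 TPM in siFLuc cells and at 3.75, 5.20 and 4.76 TPM in siBOP1 cells. All 12 IFN libraries were thus above all mock libraries, while the siRNA groups and the times overlapped. On the log2(TPM + 1) scale the IFN differences ran from 2.47 in siBOP1 cells at 12 h to 2.89 in siFLuc cells at 8 h. Each had a limma SE of 0.17, and no p-value is given because ZBP1 passed the filter only through its IFN libraries. RIPK3, the kinase through which ZBP1 signals necroptosis, was listed at 0 in all 24 libraries, whereas its substrate MLKL stood at 27.0 ± 3.17 TPM in siFLuc mock cells at 8 h and 93.2 ± 4.46 TPM with IFN-β (SD, n = 3).

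MAVS, the shared adaptor of RIG-I and MDA5, stayed between 15.9 and 29.2 TPM in all 24 libraries. In siFLuc cells at 8 h it stood at 29.2, 24.3 and 21.2 TPM in mock libraries and at 25.7, 20.4 and 18.8 TPM with IFN-β, and these ranges overlapped. In siBOP1 cells at 8 h it stood at 29.2, 23.7 and 24.3 TPM and at 24.1, 20.4 and 15.9 TPM. The IFN difference at 8 h was -0.19 in siFLuc cells (limma adjusted p = 0.617) and -0.36 in siBOP1 cells (adjusted p = 0.248). When column number entered as a block, the latter difference of -0.36 passed at an adjusted p of 0.0110 by limma. That fit called 3278 of all 16062 genes lower, and its median over all genes was -0.14. Over the 4 comparisons the mean difference was -0.11, with a 95% interval of -0.31 to 0.09 and an adjusted p of 0.393, and that value ranked 8260th of 16062. With the labelled number as a block, in libraries 1 and 2 alone, it was -0.14 and passed at a limma adjusted p of 0.0302. That fit called 5661 of all genes lower, with a median of -0.10 over all genes. The MAVS mean ran from -0.14 to -0.02 over the 9 other settings and passed in 1 of them. MAVS was lower with IFN-β in 9 of 12 pairs of same-numbered libraries, and it was the lowest in library 4 in 7 of the 8 groups and the lowest in library 1 in none. TLR3 was lowest in library 4 in 6 of 8 groups, RIGI in 3, IFIH1 in 2.

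**Figure D2:**
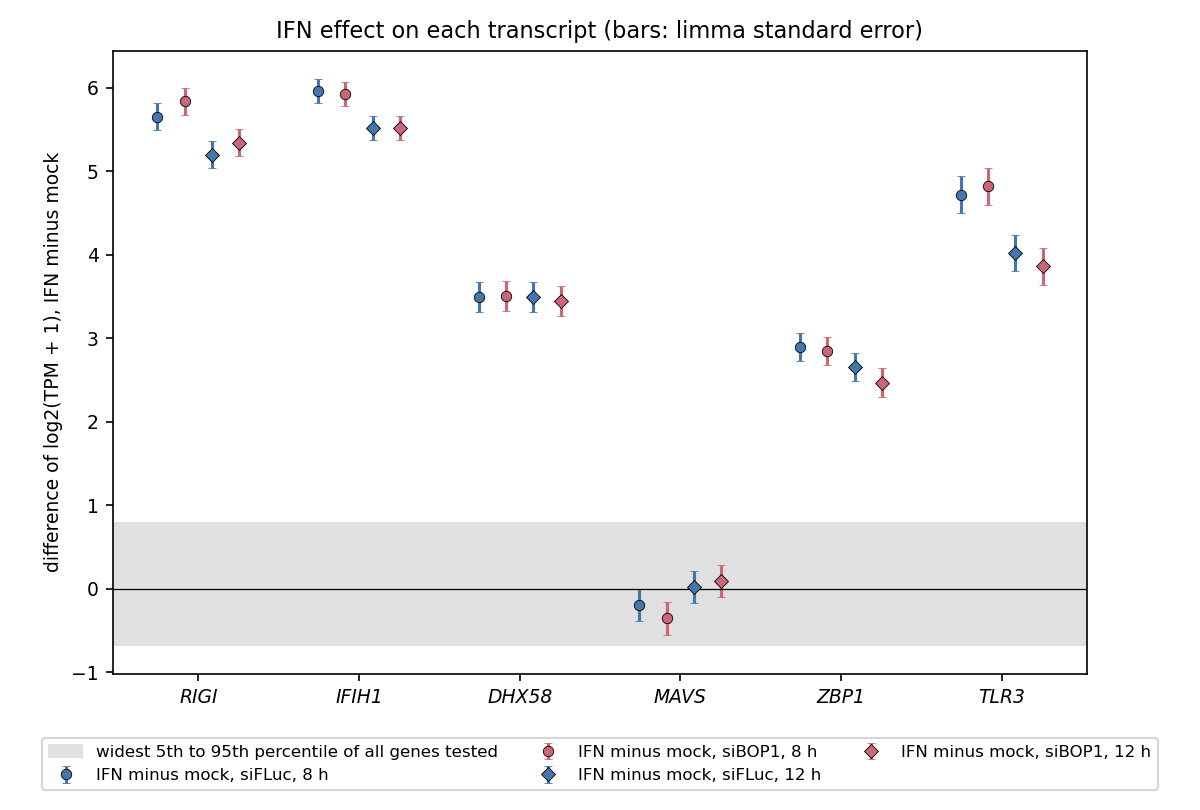
Difference of log2(TPM + 1) between IFN and mock (vertical axis) for each of the 6 transcripts (horizontal axis), in siFLuc (blue) and siBOP1 (red) cells at 8 h (circles) and 12 h (diamonds), with limma standard errors; the grey band is the widest range of the 5th to 95th percentile of all genes tested over the 4 comparisons. Of the 6 transcripts, 5 lie above the band, whose upper edge is at 0.78, and MAVS lies inside it. DHX58 and ZBP1 passed the filter only through the IFN libraries, so their place above the band is part of how they entered.

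TPM is scaled by length, so levels of the members can be set side by side within a library. In siFLuc mock cells at 8 h the order was MAVS, RIGI, IFIH1, TLR3, DHX58 and ZBP1, with mean levels of 24.9 ± 4.01, 5.77 ± 0.76, 2.18 ± 0.49, 0.900 ± 0.396 and 0.246 ± 0.018 TPM (SD, n = 3) and ZBP1 at 0. No neighbours in that order overlapped between libraries at 8 h. With IFN-β at 8 h the order was RIGI at 339.7 ± 26.2, IFIH1 at 196 ± 20.6, TLR3 at 48.7 ± 6.60, MAVS at 21.6 ± 3.64, DHX58 at 13.2 ± 2.23 and ZBP1 at 6.51 ± 1.45 TPM (SD, n = 3), again without overlap between neighbours. MAVS had thus gone from the first to the fourth place with little change of its own level.

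The sum of RIGI and IFIH1 per MAVS transcript followed from these levels. In siFLuc cells at 8 h it was 0.321 ± 0.020 in mock libraries and 25.0 ± 1.99 with IFN-β (SD, n = 3). In siBOP1 cells at 8 h it was 0.256 ± 0.013 and 25.5 ± 3.51. At 12 h it went from 0.513 ± 0.245 to 21.9 ± 1.61 in siFLuc cells and from 0.380 ± 0.150 to 18.0 ± 2.56 in siBOP1 cells. In each of the 12 mock libraries MAVS transcripts outnumbered those of both receptors together, and in each of the 12 IFN libraries they were at least 15.8-fold fewer. These are ratios of transcripts, and protein was not measured here.

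**Figure D3:**
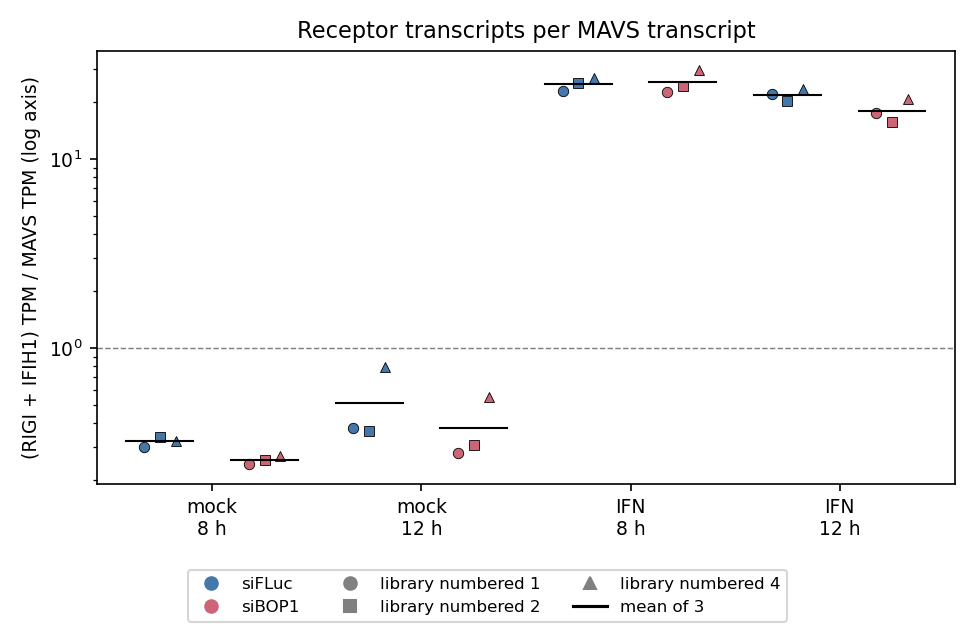
TPM of RIGI plus IFIH1 divided by TPM of MAVS (vertical axis, log scale) in each of 24 libraries, grouped by treatment and time, with siFLuc in blue, siBOP1 in red and bars for the mean of 3. Mock libraries lie below the dashed line at 1 and IFN libraries between 15.8 and 29.5.

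The comparison of siBOP1 with siFLuc asked whether loss of BOP1 changes these transcripts before or during IFN-β treatment. RIGI was lower in siBOP1 cells in all 4 conditions, and it was the only member called in the mean of the 4. In single comparisons limma called 0 of 6 members in mock cells at 8 h (2.16% of all genes were called in either direction), 0 with IFN-β at 8 h (2.0%), 0 in mock cells at 12 h (1.60%) and 0 with IFN-β at 12 h (0.660%). Leaving out 1 library took the counts behind these shares from 347 to between 138 and 255, from 322 to between 123 and 200, from 257 to between 74 and 203 and from 106 to between 32 and 128. At an unadjusted p under 0.05 the 4 comparisons held 2076, 2191, 2051 and 1444 genes in that order, with RIGI the only member in the first, the third and the fourth and no member in the second. In the mean of the 4 comparisons limma called 1 of 6 members, RIGI, where 16.9% of all genes were called, 10.0% higher and 6.91% lower. For the set of 6 members, a count of 1 is near that share. When column number entered as a block, limma called RIGI in both mock comparisons, and the count over all genes rose from 347 to 1364 and from 257 to 1231.

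The RIGI difference in the mean of the 4 comparisons was -0.43 ± 0.08 on the log2(TPM + 1) scale, with a 95% interval of -0.60 to -0.26 and an adjusted p of 0.000702 by limma. It was the 326th lowest value of 16062. Its parts after 8 h were -0.51 without IFN-β (adjusted p = 0.117) and -0.32 with it (adjusted p = 0.386). After 12 h they were -0.52 without IFN-β (adjusted p = 0.123) and -0.37 with it (adjusted p = 0.457). Leaving out 1 library moved the mock value at 12 h to between -0.70, without siBOP1 mock 12 h library 4, and -0.29, without siFLuc mock 12 h library 4. In the fit blocked by column number the mock differences passed, with an adjusted p of 0.0239 after 8 h and 0.0232 after 12 h. As a ratio of mean TPM, siBOP1 cells held 0.650 of the siFLuc level in mock cells at 8 h, 0.800 with IFN-β at 8 h, 0.652 in mock cells at 12 h and 0.770 with IFN-β at 12 h. RIGI was lower in siBOP1 than in siFLuc in 12 of 12 pairs of same-numbered libraries, with differences from -0.71 to -0.20 on the log2(TPM + 1) scale. The share of all genes with so many pairs in 1 direction was not counted, for RIGI or for the pairs of IFIH1 and MAVS. The mean difference stayed between -0.48 and -0.37 and past the threshold when any of the 24 libraries was left out.

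The other members did not pass in the mean comparison. IFIH1 was 0.16 higher in siBOP1 cells (95% interval 0.01 to 0.31, adjusted p = 0.148) and was higher in 10 of 12 same-numbered pairs; without library 1 of the siFLuc mock group at 12 h it passed, at 0.20 with an adjusted p of 0.0477. DHX58 differed by 0.18 (95% interval -0.01 to 0.36, adjusted p = 0.202), and by 0.07 to 0.32 over the other settings. MAVS differed by 0.01 (95% interval -0.19 to 0.21), ZBP1 by -0.05 (-0.23 to 0.13) and TLR3 by -0.05 (-0.28 to 0.18). In libraries 1 and 2 alone TLR3 differed by -0.20, with an adjusted p of 0.0503 when blocked by labelled number. The intervals of MAVS and TLR3 include the 0.16 seen for IFIH1. That of ZBP1 ends at 0.13, but ZBP1 was almost absent from mock cells, which holds the mock parts of its mean close to no difference. Its parts with IFN-β had 95% intervals of -0.38 to 0.32 after 8 h and -0.54 to 0.16 after 12 h.

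The mean RIGI to IFIH1 ratio was lower in siBOP1 than in siFLuc cells in all 4 conditions, though IFIH1 was called in none of them. The RIGI to IFIH1 ratio with IFN-β at 8 h was 1.73 ± 0.08 in siFLuc cells and 1.17 ± 0.08 in siBOP1 cells (SD, n = 3), with no overlap. With IFN-β at 12 h it was 1.78 ± 0.21 and 1.31 ± 0.09, again with no overlap. In mock cells at 8 h it was 2.72 ± 0.67 and 1.33 ± 0.06, without overlap. In mock cells at 12 h it was 2.92 ± 1.70 and 1.71 ± 0.64, and the ranges of 1.64 to 4.85 and 1.10 to 2.38 overlapped. No test was run on these ratios, which were examined with the RIGI and IFIH1 values known. Of the summed TPM of the 3 helicase receptors with IFN-β at 8 h, RIGI made up 61.9% ± 0.74 in siFLuc cells and 52.2% ± 1.76 in siBOP1 cells, IFIH1 35.7% ± 1.14 and 44.7% ± 1.56, and DHX58 2.41% ± 0.42 and 3.06% ± 0.32 (SD, n = 3).

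**Figure D4:**
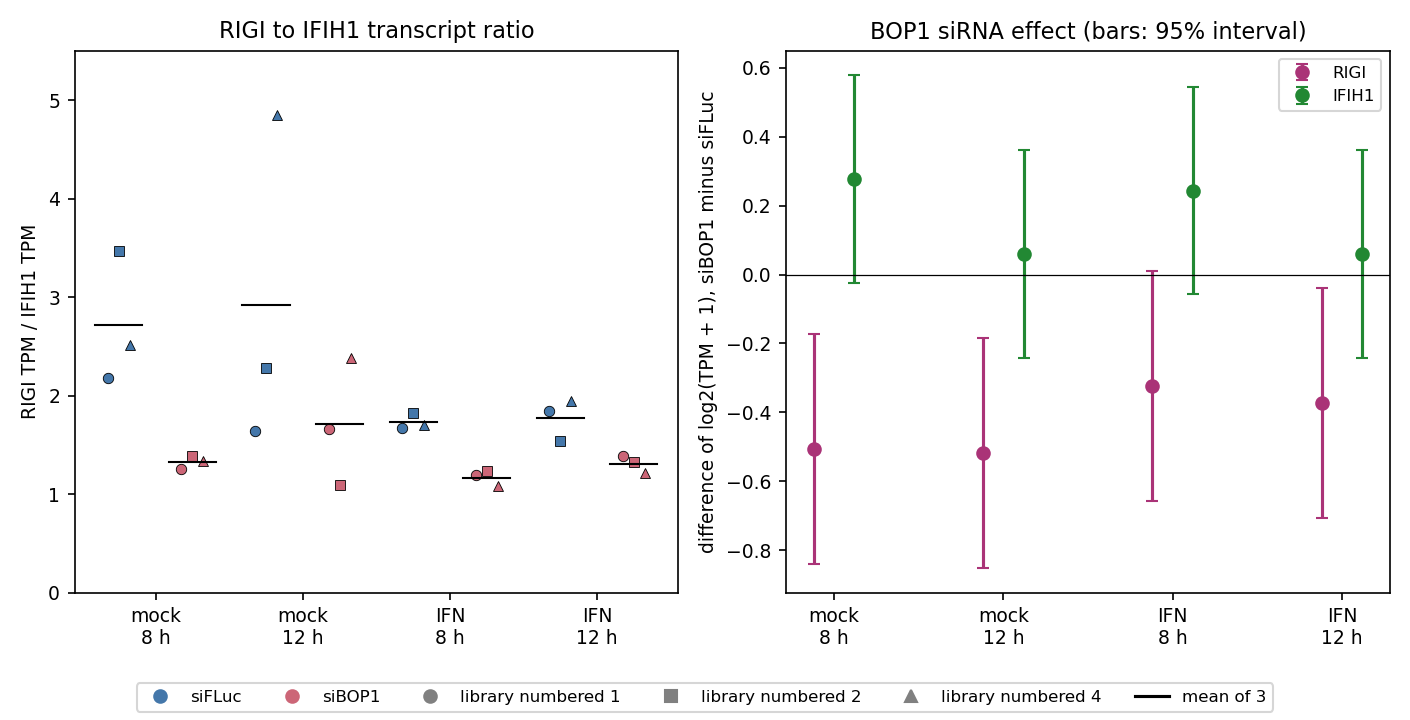
Left, RIGI TPM divided by IFIH1 TPM (vertical axis) in each library by treatment and time, with siFLuc in blue, siBOP1 in red and bars for the mean of 3; right, siBOP1 minus siFLuc difference of log2(TPM + 1) for RIGI and IFIH1 in the 4 conditions, with 95% intervals. The RIGI differences lie between -0.52 and -0.32. The IFIH1 differences are all above 0 with intervals that include 0. The ratio is lower in siBOP1 libraries without overlap except in mock cells at 12 h.

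The annotated 3′ UTR of RIGI is shown at 1 site that an earlier look at these data had drawn attention to. The 7 bases GCCAGTT were taken from earlier results of these data on genes lower with siBOP1, so their presence in RIGI is not independent of its difference. The RIGI 3′ UTR (GENCODE 29, GRCh38, 1417 bases) holds them once, at chr9:32455878-32455904, minus strand, given 5′ to 3′ with the 7 bases in capitals.
RIGI 3′ UTR site: agagaaacttGCCAGTTatataacttc
The longest annotated 3′ UTRs of the other 5 members held 0 copies. Of 12573 tested genes with an annotated 3′ UTR, 11.89% held the 7 bases, and of 2242 with a 3′ UTR of 75% to 125% of the RIGI length, 7.984% did. The siRNA sequences were not used here, so whether these bases match a seed of the pool is not known, and the part of this site in the RIGI difference was not tested.

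The IFN response itself was compared between the siRNAs by an interaction term. By limma, 0 of 6 members and 0% of all genes were called at 8 h, 0 and 0% at 12 h, and 0 and 0% in the mean of both times. At an unadjusted p under 0.05, 353, 259 and 396 genes passed in these 3 terms, and none of the members. The mean interaction was 0.16 for RIGI (95% interval -0.17 to 0.50), and between 0.05, without siFLuc mock 12 h library 4, and 0.26, without siBOP1 mock 12 h library 4, when 1 library was left out. It was -0.02 for IFIH1 (-0.32 to 0.29), -0.02 for DHX58 (-0.39 to 0.36), -0.05 for MAVS (-0.45 to 0.36), -0.12 for ZBP1 (-0.47 to 0.24) and -0.03 for TLR3 (-0.49 to 0.43). The upper end of the RIGI interval and the lower ends of the MAVS, ZBP1 and TLR3 intervals are larger in size than the 0.43 by which RIGI differed between the siRNAs.

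Time was examined as 12 h minus 8 h. TLR3 was the member that differed most in mock cells, by 0.81 in siFLuc cells (limma adjusted p = 0.128) and 0.76 in siBOP1 cells (adjusted p = 0.190). Neither passed, and 0 of 6 members were called in either siRNA, against 0.131% and 0.230% of all genes. At an unadjusted p under 0.05, 2067 and 1549 genes passed, with TLR3 the only member in each. The TLR3 difference rested on which libraries entered: without library 4 of the siFLuc mock group at 12 h it was 1.16 with an adjusted p of 0.00227. With libraries 1 and 2 only it was 0.99 in siFLuc cells (adjusted p = 0.00628) and 0.88 in siBOP1 cells (adjusted p = 0.0121). Calls over all genes rose with that setting from 21 to 263 in siFLuc cells and from 37 to 198 in siBOP1 cells. Leaving out single libraries gave 8 to 57 genes in siFLuc cells. The cause of the low TLR3 values in library 4 was not tested. With IFN-β, limma called 0 of 6 members between the times in siFLuc cells, against 3.53% of all genes, and 0 of 6 in siBOP1 cells, against 2.96%. At an unadjusted p under 0.05, 3094 and 2897 genes passed, with no member in siFLuc cells and IFIH1 and ZBP1 in siBOP1 cells. There IFIH1 differed by -0.35 (adjusted p = 0.201), with no overlap between the times, and ZBP1 by -0.39 (adjusted p = 0.217), with overlap. In siBOP1 mock cells RIGI and TLR3 also did not overlap between the times. How many of all genes separate the times in this way was not counted.

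The change of the IFN response from 8 to 12 h passed the test for none of the members. In siFLuc cells 0 of 6 members were called, against 0.00623% of all genes, in siBOP1 cells 0 against 0%, and in the mean of both 0 against 0.00623%. At an unadjusted p under 0.05, 575, 603 and 1085 genes passed in these terms, with IFIH1 and TLR3 in siFLuc cells, RIGI and TLR3 in siBOP1 cells, and all 3 in the mean. The mean difference in response was -0.83 for TLR3 (limma adjusted p = 0.348), -0.48 for RIGI (adjusted p = 0.577) and -0.43 for IFIH1 (adjusted p = 0.577). The TLR3 value was -0.70 in siFLuc and -0.96 in siBOP1 cells. With libraries 1 and 2 only, its mean was -1.02 with an adjusted p of 0.0151, and without library 4 of the siFLuc mock group at 12 h it was -1.01 with an adjusted p of 0.0210. Calls over all genes in that mean went from 1 to at most 116 over the other settings, reached with the labelled number as a block. Single libraries left out gave 1 to 3 genes.

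The genes that act with these receptors were taken from 6 lists of 71 genes in all, of which 61 passed the filter. With IFN-β, 31 of the 61 (50.8%) were called higher in the mean of the 4 comparisons, against 13.0% of all genes. Another 10 (16.4%) were called lower, against 29% of all genes, and 20 were not called. The median difference was 0.22 against -0.10 for all genes. The 31 include CXCL10 and CXCL11, which passed the filter only through the IFN libraries. After median-of-ratios rescaling the counts were 37 higher and 5 lower, with no change of sign among the calls made on the deposited scale. Over all 16062 genes that rescaling called 2946 higher and 2965 lower, in place of 2084 and 4652. With column number as a block, 35 of the 61 were called higher and 14 lower, against 2656 and 6060 of all genes. The 3 genes with the largest difference in each list are named below, and rises and falls refer to the mean of the 4 comparisons. RNF135, PPP1CC, TRAF3, TOMM70, CASP6, CHUK and IRF5 fell in that mean and were called lower in 0 of the 4 single comparisons.

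Among regulators of RIG-I and MDA5, 7 of 15 tested rose and 5 fell; after median-of-ratios rescaling 7 rose and 3 fell, with RNF135 and PPP1CA no longer called. OASL, which binds RIG-I and enhances its signalling, rose by 6.93 ± 0.07, and DDX60, a helicase proposed to assist RIG-I, by 4.50 ± 0.13. TRIM25, a ubiquitin ligase that acts on RIG-I, rose by 2.38 ± 0.07. The 5 that fell included TRIM65, a ligase for MDA5, at -0.44 ± 0.07, and PPP1CC, a phosphatase subunit that activates the receptors, at -0.29 ± 0.08. Of these, PPP1CC was also 0.55 ± 0.08 higher with siBOP1 (limma adjusted p = 3.83e-05).

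Of the 18 partners and regulators of MAVS tested, 6 rose, 2 fell and 10 were not called, with a median of 0.05; after rescaling 8 rose and 2 fell. TRIM31, a ligase that promotes MAVS aggregation, rose by 1.93 ± 0.07, TRADD, a death domain adaptor in the MAVS complex, by 1.31 ± 0.05, and SMURF1, a ligase that targets MAVS, by 0.46 ± 0.07. TRAF3, a ligase downstream of MAVS, fell by 0.33 and TOMM70, the outer membrane receptor that links MAVS to its kinases, fell by 0.29 on the log2 scale. TRIM31 and TRADD were also higher with siBOP1 in the mean comparison, by 0.43 ± 0.07 and 0.28 ± 0.05 (limma adjusted p = 0.000354 and 0.000322).

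In the TLR3 list 3 of 6 tested rose and none fell; after rescaling 4 rose. UNC93B1, which carries nucleic acid receptors to endosomes, rose by 1.60 ± 0.08, TICAM1, which encodes TRIF, by 0.75 ± 0.07, and HSP90B1, a chaperone, by 0.22 ± 0.04. TLR7 and TLR8, the endosomal receptors for single-stranded RNA, were listed at 0 in all 24 libraries, and TLR9 reached at most 0.078 TPM. In the ZBP1 and necroptosis list 5 of 6 tested rose and 1 fell. MLKL, the executioner of necroptosis, rose by 1.79 ± 0.07, CFLAR, an inhibitor of caspase 8, by 1.08 ± 0.09, and CASP8 by 0.99 ± 0.04, while CASP6, a caspase reported to join ZBP1 complexes, fell by 0.34 on the log2 scale, a call that was lost after rescaling (-0.25, limma adjusted p = 0.0746).

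Of 12 kinases and transcription factors, 6 rose, 2 (CHUK and IRF5) fell and 4 were not called; after rescaling 9 rose and 0 fell, with IKBKB, IKBKG and NFKB1 added. IRF7, the transcription factor that amplifies interferon production, rose by 5.94 ± 0.08, IKBKE, one of its kinases, by 1.07 ± 0.08, and AZI2, an adaptor of that kinase group, by 1.07 ± 0.10. TBK1, the kinase shared by MAVS and TRIF signalling, rose by 0.41 ± 0.06 and its target IRF3 by 0.22 ± 0.07. Among the products of the pathway, CCL5 rose by 2.30 ± 0.18 and IL6 by 1.73 ± 0.30. IL6 was called in 2 of the 4 single comparisons. In siFLuc cells at 12 h it stood at 20.2 ± 25.1 TPM in mock libraries and 43.6 ± 30.2 TPM with IFN-β (SD, n = 3). The chemokines CXCL10 and CXCL11 rose by 3.49 ± 0.06 and 3.40 ± 0.09. Their mock group means were at most 0.146 and 0.026 TPM. Both passed the filter only through the IFN libraries, so their calls are part of how they entered. The 5 interferon genes examined did not reach the filter, with a highest value of 0.294 TPM for IFNB1, 0.104 for IFNA1, 1.11 for IFNL1, 1.13 for IFNL2 and 1.16 for IFNL3. With siBOP1, 9 of the 61 genes (14.8%) were called higher and 3 (4.92%) lower, near the 10.0% and 6.91% of all genes, and no gene of the lists was called in the interaction. The 9 higher were PPP1CC, TRIM31, IKBKE, HSP90B1, TRADD, UNC93B1, CYLD, FADD and RNF5. The 3 lower were TRAF5 at -0.28, MLKL at -0.27 and PCBP2 at -0.19. With column number as a block, 14 of the 61 were higher with siBOP1 and 5 lower, while calls over all genes rose from 2718 to 4769.

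**Figure D5:**
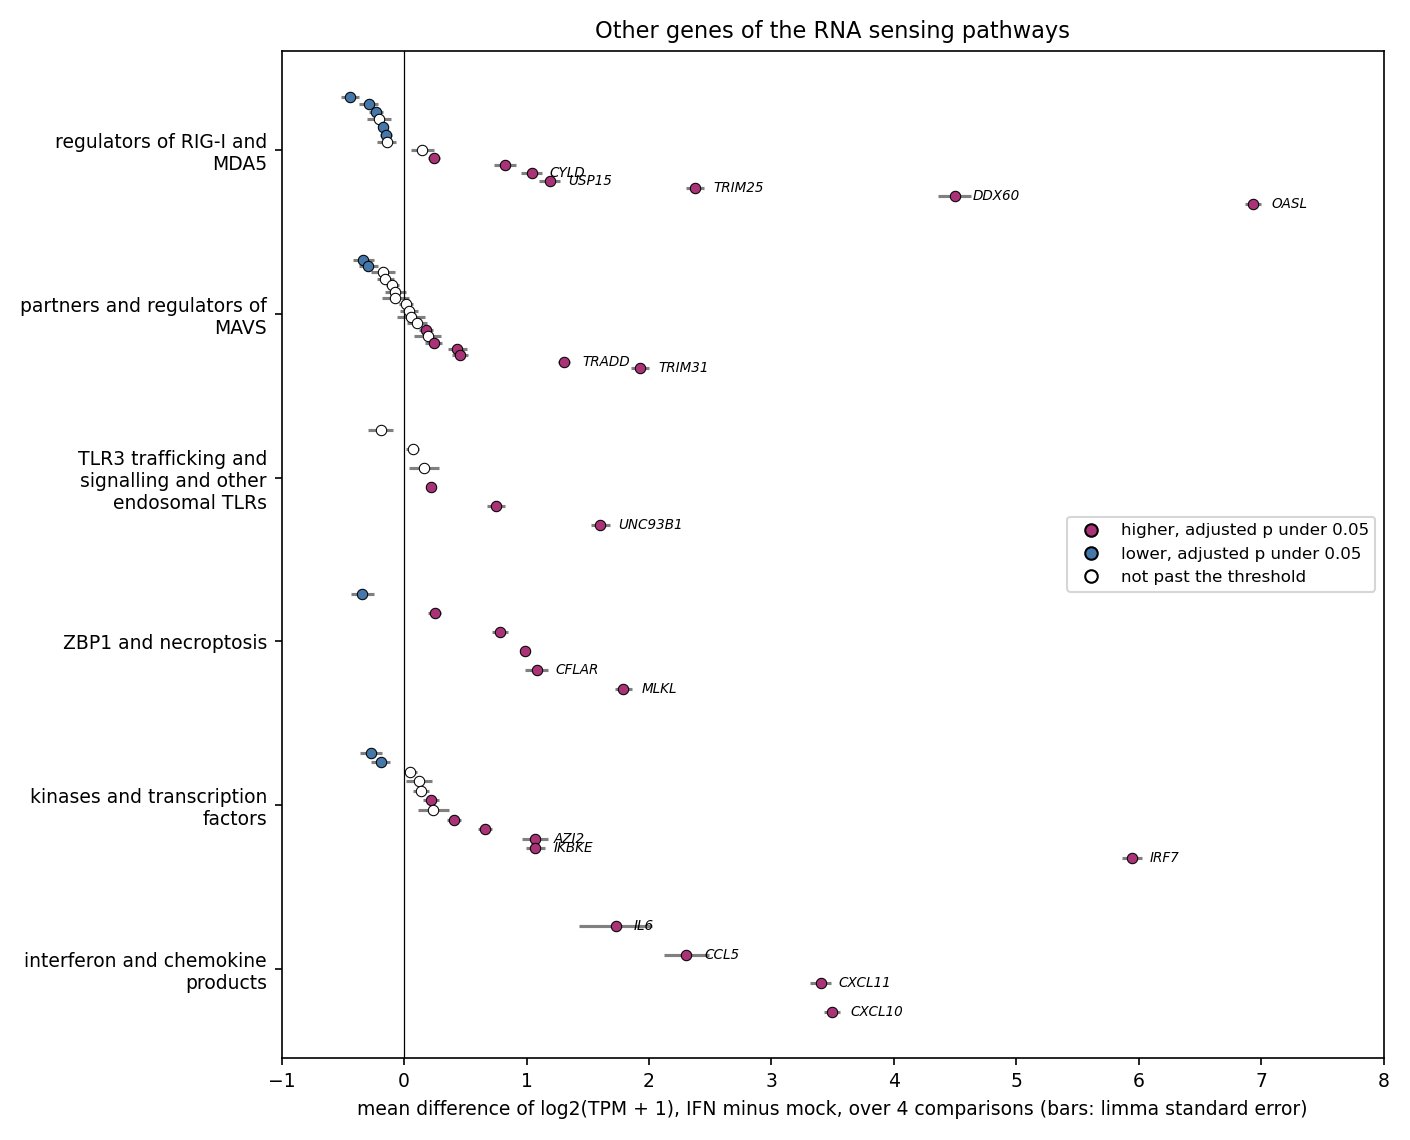
Mean difference of log2(TPM + 1) between IFN and mock over 4 comparisons (horizontal axis), with limma standard errors, for the 61 tested genes of 6 lists (vertical axis); purple marks genes called higher, blue called lower and white not called, and genes past 1 are named. OASL at 6.93 and IRF7 at 5.94 stand farthest right, and most partners of MAVS lie near 0.

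For each member the 3 most similar genes over the 24 libraries were found by Pearson correlation of log2(TPM + 1) among 11466 genes with at least 5 TPM in some group. The libraries form 12 mock and 12 IFN libraries, which share that step for every induced gene, so the values are given as a description. RIGI was nearest to HERC5 (r = 0.996), NMI (0.996) and SP110 (0.995), and IFIH1 to PARP14, APOL6 and SAMHD1 (each 0.998). In the siBOP1 comparison HERC5 differed by -0.08, NMI by -0.15 and SP110 by -0.12, against -0.43 for RIGI. PARP14 differed by 0.15, APOL6 by 0.18 and SAMHD1 by 0.12, against 0.16 for IFIH1, which was not called. These neighbours were chosen over libraries of both siRNAs, so a shared siRNA difference is part of how they were chosen. DHX58 was nearest to PSMB8 (0.996), OAS2 (0.994) and PARP12 (0.994), ZBP1 to MX2 (0.994), PHF11 (0.993) and RSAD2 (0.993), and TLR3 to PLSCR1 (0.996), DDX60 (0.994) and TNFSF10 (0.993). MAVS had no such close neighbour, the highest being BCAN-AS1 (0.904), JRKL (0.874) and MUC20-OT1 (0.866); the first is antisense to another gene, and whether counting used strand is not given in the sources used here.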

How the data were processed

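RNA was measured in 24 libraries of A549 cells by stranded mRNA sequencing of total RNA, per the labels' protocols. The authors deposited 1 table of TPM values, whose columns each sum to 1000000; the aligner, annotation and quantifier are not given in the sources used here. Of its 60609 rows 60340 were matched to a gene symbol by identifier. TPM carries no depth, so a low value has an unknown counting error, and a rise of strongly induced genes lowers the share of all others.

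For tests, limma 3.58.1 (R 4.3.3) was fitted to log2(TPM + 1) of genes that reached 1 TPM in 3 or more libraries, with 1 mean per group over all 24 libraries, a mean-variance trend and Benjamini-Hochberg adjustment within each comparison at a threshold of 0.05; the code was tested on simulated data. The members, lists and motifs were chosen with earlier results of these data known. Named genes were the 6 members, the 3 genes most correlated with each, and up to 3 genes of each list with the largest mean IFN difference. RIPK3, TLR7, TLR8, TLR9, the interferon genes, IL6, TBK1, IRF3, PPP1CC, TRIM65, TRAF3, TOMM70 and CASP6 were added after their values were seen. So were the list genes called with siBOP1 and those whose call changed with rescaling. Deviations from group means of libraries with the same column number correlated at r = 0.115 to 0.508 in all 8 pairs of groups compared. The main fit holds no block, so its p-values leave this pairing out. The column number, taken from the table, entered as a block in another fit. Values of that fit are given where the call of a member changes, and as counts for the lists. With the labelled numbers 1 and 2 alone r was -0.012 to 0.156 and was over 0.1 in 3 of 8. Gene positions and 3′ UTRs came from GENCODE 29 and promoters from RefSeq. Alternatives were another pseudocount, filters, scalings, the variance model, the samples in the fit, blocks and leaving out libraries. A marker gene and a further motif are not reported here.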

Additional observations from a re-analysis of the deposited data

How the results depend on the processing

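The members called for siBOP1 with IFN-β and for the siRNA by IFN interaction stayed at 0 under the other settings run and with single libraries left out. For IFN-β the count of 5 includes DHX58 and ZBP1, which passed the filter only through the IFN libraries. This count became 4 of 5 tested with a filter at a mean of 5 TPM, which removed ZBP1. It became 6 where MAVS was called lower, in siBOP1 cells at 8 h with the column block and in the mean with the labelled block. For siBOP1 in mock cells at 8 h the count was 1, RIGI, in place of 0 under median-of-ratios rescaling, quantile normalization, either replicate block and libraries 1 and 2 only. In mock cells at 12 h it was 1, again RIGI, under the same settings except rescaling. For time in mock cells it was 1, TLR3, in place of 0 for both siRNAs with libraries 1 and 2 only. For time by IFN in the mean it was 1 with that setting and with the labelled block. The blocks lie within a time, so the difference between times was not run with a block. Leaving out single libraries gave 1 to 2 members for siBOP1 in the mean, 0 to 1 for time in siFLuc mock cells and 0 to 1 for time by IFN in the mean; the 2 came without siFLuc mock 12 h library 1, the others without library 4 of that group. The column number as a replicate block changed the MAVS call at 8 h in siBOP1 cells and the RIGI calls in mock cells, and no other call of a member. Over all genes that block raised the calls for IFN-β from 1741 to 3370 and 2166 to 4326 in siFLuc cells after 8 and 12 h, and from 2426 to 4653 and 2370 to 4487 in siBOP1 cells. It raised those for siBOP1 from 347 to 1364, 322 to 1415, 257 to 1231 and 106 to 606, and from 2718 to 4769 in the mean, and those for time by IFN in the mean from 1 to 61. Fits of only the groups compared gave 41, 23, 10 and 1 genes for siBOP1 in the 4 single comparisons.

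Values with no call changed sign in some settings. The siRNA by IFN interaction became 0.0180 for IFIH1, 0.0069 for DHX58 and 0.0013 for TLR3 after rescaling, and 0.0686 for DHX58 and 0.0243 for TLR3 after quantile normalization. With libraries 1 and 2, blocked by labelled number or not, it was 0.0392 for MAVS and 0.180 for TLR3. With single libraries left out it ranged from -0.0951 to 0.0530 for IFIH1, -0.111 to 0.0590 for DHX58, -0.135 to 0.0619 for MAVS and -0.162 to 0.149 for TLR3, and the mean siRNA difference from -0.0440 to 0.0543 for MAVS and -0.144 to 0.0118 for TLR3. The cause was not tested. TPM gives no depth, so the counting error of low values such as DHX58, ZBP1 and TLR3 in mock cells is unknown.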
